A study of Mus musculus with 36 samples.

Results

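The 6 libraries described here came from BV-2 cells, an immortalized mouse microglial line with the label wild-type, that received lipopolysaccharide (LPS) together with monomethyl fumarate (MMF) and were harvested after 4 h or after 24 h. They were chosen by their labels alone, as the 3 libraries LPS_MMF_4h and the 3 libraries LPS_MMF_24h among 36 libraries in 12 groups of 3. RNA was selected for poly(A) tails and sequenced, and all 17269 genes listed for these libraries were considered, of which 11545 reached a normalized count of 10 in at least 3 of the 6 libraries and were tested. LPS from Escherichia coli was used at 600 ng/mL and MMF at 30 µM, in medium whose serum had been lowered to 0.1% just before the drugs, with 0.2% dimethyl sulfoxide (DMSO) carrying the drug. The change with time was set beside that of 3 other treatments harvested at the same 2 times, each with 3 libraries per time: LPS without a drug, LPS with 30 µM dimethyl fumarate (DMF), and the DMSO vehicle without LPS. No group here had MMF without LPS and none was harvested before treatment, so each change is between 4 h and 24 h of exposure and not from a resting state. Each experiment was repeated 3 times per the labels, in 1 cell line, and the p-values measure the spread between these 3 libraries a group.

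Microglia are the resident macrophages of the brain. LPS, a part of the outer membrane of Gram-negative bacteria, is sensed by Toll-like receptor 4 with its co-receptor Cd14, and the signal runs through Myd88 to NF-kB, which switches on cytokines and chemokines within hours, and through Ticam1 to type I interferon and its target genes. Later in the response, acute-phase proteins, proteases and nitric oxide synthase are made and feedback inhibitors damp the signal. MMF is the monomethyl ester of fumaric acid and DMF its dimethyl ester. DMF is a drug for relapsing multiple sclerosis that is converted to MMF in the body, and both are known to react with cysteines of Keap1, the protein that holds the antioxidant factor Nrf2 in check. MMF is also a ligand of the receptor Hcar2.

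The MMF libraries held 16128218 to 21670051 reads, between 14615 and 14999 genes were detected in each, mitochondrial genes took 1.83% to 2.26% of the reads and the 10 most abundant genes 5.21% to 6.43%. Values below are normalized counts, that is read counts divided by a size factor for the library. The libraries numbered 2 stood apart at both times: among 28 tested interferon-response genes, library 2 was the highest of its group for 28 at 4 h and 27 at 24 h, where it was the highest for 31.7% and 39.1% of all tested genes. The labels do not say what a library number stands for, and the part this difference plays in a result was not tested. Counts of genes without both libraries numbered 2 are therefore given for each list, for 24 h against 4 h under LPS with MMF. Among 22 microglial identity genes 16 were tested. Csf1r, Itgam, Trem2, Tyrobp and Spi1 were expressed, whereas Siglech and Gpr34 had at most 2.42 normalized counts in any library, and Fcrls and Sall1 had no row, so several markers that set brain microglia apart from other macrophages were absent or nearly so. Of markers of other cell types, summed levels were 3.18 to 7.06 for lymphocytes and 1081 to 1350 for oligodendrocytes across the 6 libraries. Summed neuron markers went from 112–174 at 4 h to 205–229 at 24 h, most of it Map2. Both of those tested rose with limma, but Gad1 did not pass with DESeq2, without the filter on low values or without 4 h library 3. Summed markers of fibroblasts and endothelium went from 75.4–111 to 126–159. Summed astrocyte markers went from 2028–2658 at 4 h to 4279–5627 at 24 h, nearly all of it Aldoc, a glycolytic enzyme, while Gfap was between 2.02 and 12.7. In bulk RNA, fewer cells of a kind and less RNA per cell cannot be told apart.

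Under LPS with MMF the transcriptome at 24 h differed widely from that at 4 h. By limma on log2(normalized count + 1), 5710 genes (49.5% of those tested) passed an adjusted p of 0.05 (Benjamini-Hochberg over all 11545 genes). Of these, 2902 (25.1%) were higher at 24 h and 2808 (24.3%) lower. The 3 libraries of each time did not overlap for 6799 genes (58.9%). Most changes were small, with a median size of 0.519 log2 units among the genes that passed, and 807 genes (6.99%) passed with a change of more than 2-fold, of which 657 were higher at 24 h and 150 lower. All log2 changes below are 24 h against 4 h on the log2(normalized count + 1) scale, which understates the change of genes with low counts. The median over all tested genes was 0.00 (to 2 decimals), and this is the value against which the list medians below should be read.

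The genes with the largest rises, among those with a mean of 50 or more in the higher group and no overlap between the groups, were led by Urah and Lcn2. Lcn2 encodes lipocalin 2, an acute-phase protein that binds bacterial siderophores. It had 265, 362 and 250.2 normalized counts in 4 h libraries 1, 2 and 3 and 4339, 7785 and 6866 at 24 h, a log2 change of 4.41 (SE 0.19, adjusted p = 5.57e-07). Its lowest 24 h library was more than 10 times its highest 4 h library. Mmp9, a secreted gelatinase, had 83.8, 74.0 and 79.4 at 4 h and 561, 769 and 454 at 24 h, a log2 change of 2.86 (SE 0.17, adjusted p = 3.40e-06). Urah, an enzyme of urate breakdown whose model overlaps another gene model, was close to undetected at 4 h with 3.18, 7.4 and 0 and had 64.1, 99.8 and 54.0 at 24 h, so its log2 change of 4.44 (SE 0.64, adjusted p = 2.35e-04) rests on few early reads. Wnt6, a secreted Wnt ligand, rose from 69.0, 56.0 and 58.3 to 306, 567 and 361, a log2 change of 2.69 (SE 0.21, adjusted p = 9.49e-06). For Wnt6 no 24 h library was below 306 and no 4 h library above 69.0. Nfe2, the p45 subunit of the transcription factor NF-E2, rose by 2.76 log2 units. The other genes of this set were Crtac1, an extracellular matrix protein (3.56), the POU-domain factor Pou6f1 (3.17), the calcium-binding S100a7a (3.11), the carbonyl reductase Cbr2 (2.82), the microtubule protein Map1a (2.70), the peptidylarginine deiminase Padi3 (2.67) and Crybg2 (2.61).

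The largest falls by the same rule were smaller in size and included cytokine, interferon and alternative-activation genes. Ccl20, a chemokine for Ccr6-bearing lymphocytes, went from 71.1, 71.9 and 55.3 normalized counts in 4 h libraries 1, 2 and 3 to 3.20, 6.05 and 11.3 at 24 h, a log2 change of -3.22 (SE 0.38, adjusted p = 9.01e-05). The mannose receptor Mrc1 went from 49.9, 53.9 and 58.3 to 11.7, 11.1 and 14.5, a log2 change of -2.04 (SE 0.26, adjusted p = 1.18e-04). Per2, a repressor of the circadian clock, went from 155, 162 and 129.6 to 35.2, 66.5 and 41.1, a log2 change of -1.67 (SE 0.23, adjusted p = 1.87e-04). Of the 3, Per2 had the narrowest gap, from 66.5 in its highest 24 h library to 129.6 in its lowest 4 h library. Alox15, a lipoxygenase, changed by -1.98 log2 units, and Kbtbd8, a substrate adaptor of a Cullin ubiquitin ligase, by -1.61. Olfm4 (-1.63), Cercam (-1.74), Lsmem2 (-1.60), Fam169a (-1.58) and Gm21992 (-1.57) completed the set together with the antiviral genes Mx1 and Ifit1. The model of Gm21992 overlaps Rbm4 and Rbm14, whose reads it can share.

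**Figure D1:**
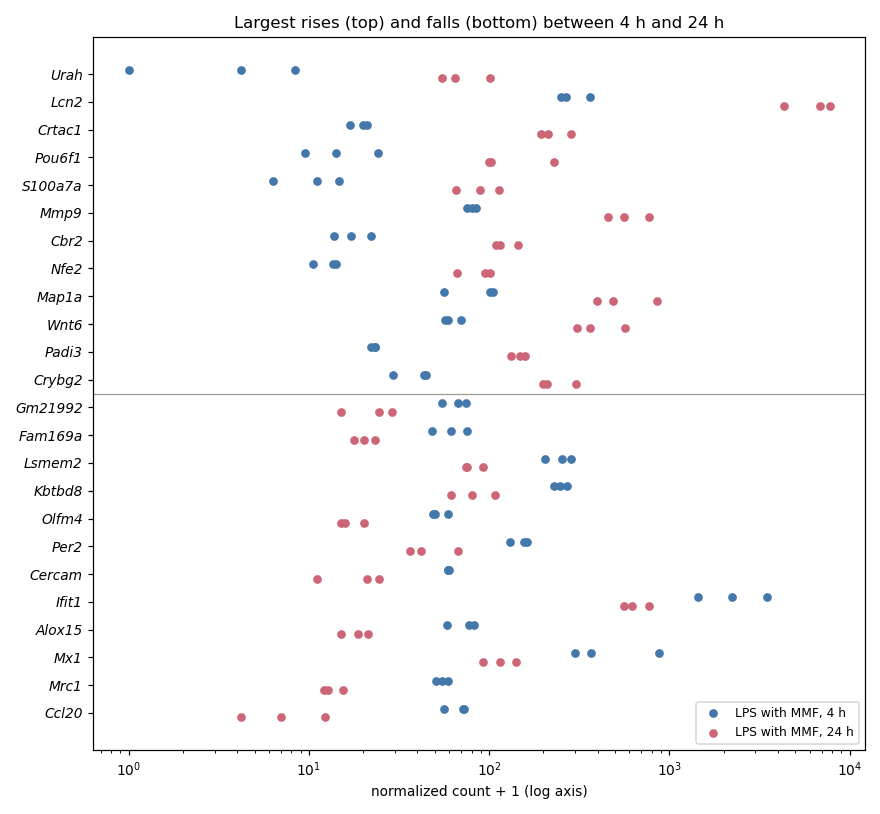
Normalized count + 1 (log axis) of 12 strongly rising genes (above the line) and 12 strongly falling genes (below it) in each of the 3 LPS with MMF libraries at 4 h (blue) and at 24 h (red). The groups do not overlap for any of the 24, which the selection rule required, and Lcn2 goes from at most 362 at 4 h to at least 4339 at 24 h.

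Interferon-response genes went in both directions. Of 28 tested, 10 (35.7%) fell and 5 (17.9%) rose, against 24.3% and 25.1% of all tested genes, with a list median of -0.21. Ifit1, an RNA-binding inhibitor of translation induced by interferon, had 1443, 3499.8 and 2217 at 4 h and 618, 772 and 557 at 24 h, a log2 change of -1.80 (SE 0.24, adjusted p = 1.69e-04). Rsad2, or viperin, had 1684, 4193 and 2542 at 4 h and 1011, 1309.8 and 798 at 24 h, a log2 change of -1.36 (SE 0.26, adjusted p = 0.00138). In both, 4 h library 2 was the highest of the 6, and no 24 h library reached the lowest at 4 h. The dynamin-like GTPase Mx1 went from 300.2, 878 and 367 to 114, 139 and 91.8, a log2 change of -2.01 (SE 0.32, adjusted p = 3.96e-04), and its relative Mx2 changed by -1.48. Oas3, a 2′-5′ oligoadenylate synthetase, moved the other way, from 1777, 3837 and 2463 to 4825, 5768 and 4542, a log2 change of 0.97 (SE 0.21, adjusted p = 0.00268), and Bst2, or tetherin, also rose (0.60). Irf7, a transcription factor that amplifies interferon production, and the exonuclease Isg20 had log2 changes of 1.08 and 1.11 that passed with limma, but neither passed with DESeq2 nor without 4 h library 3. The counts depended on library 2: without the 4 h library numbered 2 they became 10 higher and 7 lower, without both libraries numbered 2 they were 8 and 10, with the library number as a block 8 and 14, and with DESeq2 2 and 9, and 2 were higher without 4 h library 3. Reads of near-identical family members (Mx, Ifit, Oas, Gbp) may be split between them by the counting.

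The 300 bases before the start of transcription are shown for 3 of these genes because Ifit1 and Rsad2 fell and Oas3 rose and each window holds the same motif. Capitals mark matches, on either strand, to the core of the interferon-stimulated response element TTTCNNTTTC, a motif of many interferon-induced promoters. The sequences are from GRCm39, upstream of the canonical transcript in GENCODE M39, and read 5′ to 3′ on the strand of the gene. Ifit1 lies at chr19:34617971-34618270 (+), Rsad2 at chr12:26506452-26506751 (-) and Oas3 at chr5:120915730-120916029 (-).
Ifit1: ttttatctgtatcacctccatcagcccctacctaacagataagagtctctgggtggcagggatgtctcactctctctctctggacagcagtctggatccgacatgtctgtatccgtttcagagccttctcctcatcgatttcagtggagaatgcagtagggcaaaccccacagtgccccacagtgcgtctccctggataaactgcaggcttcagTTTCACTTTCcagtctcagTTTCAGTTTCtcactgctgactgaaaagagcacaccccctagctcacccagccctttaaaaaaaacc
Rsad2: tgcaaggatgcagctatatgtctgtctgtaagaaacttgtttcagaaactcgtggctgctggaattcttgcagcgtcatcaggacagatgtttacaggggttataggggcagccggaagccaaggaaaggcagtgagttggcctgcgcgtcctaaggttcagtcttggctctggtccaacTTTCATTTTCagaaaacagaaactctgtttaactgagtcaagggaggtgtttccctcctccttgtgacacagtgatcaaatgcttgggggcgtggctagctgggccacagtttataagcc
Oas3: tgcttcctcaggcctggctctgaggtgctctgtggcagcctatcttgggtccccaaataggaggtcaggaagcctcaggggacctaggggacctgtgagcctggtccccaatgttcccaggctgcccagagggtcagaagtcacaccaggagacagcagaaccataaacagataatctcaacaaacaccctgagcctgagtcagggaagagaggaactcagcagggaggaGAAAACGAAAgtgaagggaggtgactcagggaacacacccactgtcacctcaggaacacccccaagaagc
Of the 28 tested interferon-response genes 11 (39.3%) held this motif in the window, against 3.57% of the 11537 windows of all tested genes that could be read. The 11 were Bst2, Ifit1, Ifit3, Isg15, Oas2, Oas3, Oasl1, Rsad2, Stat2, Trim30a and Usp18, and they include genes that rose, genes that fell and genes that did not pass. A match is a description of the letters and not of a bound site.

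Genes that sense LPS and carry its signal also went both ways, with 6 of 18 higher and 6 lower, 33.3% each against 25.1% and 24.3% of all genes (median 0.12). Without 24 h library 2 or 4 h library 1 the higher count was 3, and without both libraries numbered 2 the counts were 5 higher and 6 lower. Tlr2, which senses bacterial lipopeptides, went from 3698, 3431 and 3808 at 4 h to 1390.1, 2199 and 1626 at 24 h, a log2 change of -1.09 (SE 0.14, adjusted p = 1.08e-04). The adaptor Myd88 went from 2099, 2032 and 1864 to 1044, 1126 and 1133, a log2 change of -0.86 (SE 0.08, adjusted p = 2.45e-05). Tlr4 itself was higher at 24 h, with 515, 524 and 562 at 4 h and 873, 816 and 849.8 at 24 h, a log2 change of 0.66 (SE 0.09, adjusted p = 1.41e-04). Irak3, a kinase-like inhibitor of Toll-like receptor signaling, rose by 1.48 log2 units and the adaptor Ticam1 by 0.82. The co-receptor Cd14, with 22111 to 23452 at 4 h, was at 14563 to 19416 at 24 h (-0.49). Of 20 NF-kB subunits and feedback inhibitors 3 (15%) rose and 7 (35%) fell (median -0.02). The counts were 2 and 8 without both libraries numbered 2, 5 and 4 without 24 h library 1, and 4 lower without 4 h library 3. The members included the inhibitor Nfkbib (-0.73) on the lower side and the atypical IkB protein Bcl3 (0.92) on the higher. Nfkbia and Nfkb1 did not pass, with 0.13 and 0.03. Of 25 immediate early factors 10 (40%) rose, among them Klf2 (1.30) and Fos (0.94), and 1 (4%), Fosb, fell (-0.92). The list median was 0.26, and 12 rose and 3 fell without both libraries numbered 2.

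Of 16 cytokines 7 (43.8%) rose between 4 h and 24 h and 2 (12.5%) fell (median 0.39), against 25.1% and 24.3% of all tested genes. Without 24 h library 2 the counts were 5 and 2, and without both libraries numbered 2 they were 6 and 2. Csf3, the granulocyte colony-stimulating factor, had 262, 207 and 184 at 4 h and 464, 912 and 558 at 24 h, a log2 change of 1.52 (SE 0.21, adjusted p = 2.15e-04). Il18 had 133, 307 and 235 at 4 h and 468, 599.9 and 481 at 24 h, a log2 change of 1.27 (SE 0.24, adjusted p = 0.00118), and Il6 rose by 1.26 from a low level. Tnf, abundant throughout, had 7708, 5729 and 5970.2 at 4 h and 5689.6, 5796 and 5679.8 at 24 h, and its log2 change of -0.16 (SE 0.10, adjusted p = 0.209) did not pass. Il1b had 1343, 2741 and 1477 at 4 h and 1988, 3804 and 2823 at 24 h, with overlapping groups and a log2 change of 0.66 (SE 0.26, adjusted p = 0.0507) that did not pass. Of 15 chemokines 2 (13.3%) rose and 4 (26.7%) fell (median -0.13, and 2 and 6 without both libraries numbered 2). Besides Ccl20, the interferon-induced Cxcl10 fell from 418, 888 and 809 to 178, 317 and 213, a log2 change of -1.54 (SE 0.26, adjusted p = 6.57e-04), and the neutrophil chemokine Cxcl3 fell too (-0.74). Ccl5 had a log2 change of 1.04 that did not pass without 4 h library 3, and Ccl2, Ccl3, Ccl4 and Cxcl2 did not pass, with 0.14, -0.13, -0.23 and -0.14.

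Late effector and acute-phase genes had the highest median of the 22 response lists, 0.64. Of 20 tested, 13 (65%) were higher and 1 (5%) lower, against 25.1% and 24.3% of all tested genes. Without both libraries numbered 2, 14 of 18 were higher and 2 lower. Nos2, the inducible nitric oxide synthase, had 1280.5, 3449 and 2195 at 4 h and 4955, 9704 and 4962 at 24 h, a log2 change of 1.54 (SE 0.31, adjusted p = 0.00193). The acute-phase serum amyloid Saa3 had 11079.9, 16419 and 11106 at 4 h and 22988, 59786 and 33984 at 24 h, a log2 change of 1.51 (SE 0.27, adjusted p = 8.60e-04). In each, library 2 was the highest of its time and the times did not overlap. S100a8, a subunit of calprotectin, rose by 2.00, the macrophage elastase Mmp12 by 1.17, haptoglobin (Hp) by 1.07, complement C3 by 0.98 and the protease inhibitor Slpi by 0.89. Arg1, the arginase of alternatively activated macrophages, was the member that fell, from 21.2, 26.4 and 26.1 to 6.41, 6.05 and 2.42, a log2 change of -2.18 (SE 0.42, adjusted p = 0.00128). Acod1, which makes itaconate, and Ptgs2, the inducible cyclooxygenase, were abundant at both times and did not pass, with log2 changes of 0.02 and 0.31.

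Genes of macrophage surface and identity rose in part. Among 16 microglial identity genes 8 (50%) rose and none fell (median 0.33), against 25.1% and 24.3% of all tested genes. With both libraries numbered 2 left out 7 rose and 2 fell, and with the library number as a block 8 rose and 2 fell. Tmem119, a microglial membrane protein at a low level in these cells, had 33.9, 43.4 and 24.1 at 4 h and 95, 170.4 and 76.5 at 24 h, a log2 change of 1.68 (SE 0.30, adjusted p = 8.84e-04). Irf8, a transcription factor of the macrophage lineage, had 728, 599.5 and 763 at 4 h and 1572, 1870.4 and 1576 at 24 h, a log2 change of 1.27 (SE 0.11, adjusted p = 1.39e-05). Aif1, or Iba1, rose by 1.47 and the integrin Itgam by 0.89, while the receptor Csf1r did not pass (0.14). Of 26 lysosomal and phagocytic genes 11 (42.3%) rose and 5 (19.2%) fell (median 0.17, and 10 and 8 without both libraries numbered 2). Fcgr4, a receptor for immunoglobulin G, went from 107, 219.9 and 142 to 531, 705 and 599, a log2 change of 2.02 (SE 0.21, adjusted p = 4.65e-05), and Fcgr2b and Fcgr3 rose by 1.17 and 1.0. Apoe, the lipid carrier, fell from 1092, 1159 and 1145 to 619, 658 and 656, a log2 change of -0.81 (SE 0.08, adjusted p = 3.47e-05). Of 19 antigen-presentation genes 5 (26.3%) rose and 3 (15.8%) fell (median 0.12). The shares of all genes were 25.1% and 24.3%, and 3 rose without 24 h library 2 or 4 h library 1. Without both libraries numbered 2, 6 rose and 3 fell. The costimulatory Cd86 rose (1.02), and Cd40 and the adhesion molecule Icam1 fell (-1.14 and -1.06).

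Nrf2 targets, the genes for which fumarates are best known, had a median near that of all genes, 0.06, with 5 of 22 higher (22.7%, against 25.1% of all genes) and 3 lower (13.6%, against 24.3%). They were 3 and 5 without 24 h library 2, 4 and 5 without both libraries numbered 2, and 7 and 5 with the library number as a block. Hmox1, heme oxygenase 1, had 8321, 9884 and 8220.2 at 4 h and 7003, 8451 and 6852 at 24 h, and its log2 change of -0.25 (SE 0.10, adjusted p = 0.0643) did not pass. Srxn1, sulfiredoxin, fell from 2156, 2477 and 1888 to 1282, 1448 and 1328, a log2 change of -0.68 (SE 0.10, adjusted p = 3.04e-04). Txnrd1, thioredoxin reductase, fell from 10961, 10821 and 9665 to 6808, 6353 and 7028, a log2 change of -0.64 (SE 0.08, adjusted p = 1.19e-04). For both, all 24 h libraries lay below all 4 h libraries, as they did for Gclc, the catalytic subunit of glutathione synthesis (-0.43). The members that rose include iron and heme genes: Fth1, ferritin heavy chain, from 75948, 55274 and 69998 to 103520.0, 141594 and 109707 (0.82), the biliverdin reductase Blvrb (1.18) and the heme transporter Slc48a1 (0.53). Of 9 fumarate targets and regulators of Nrf2 0 rose and 2 (22.2%) fell with limma. The counts were 1 and 2 with edgeR, 1 and 4 with the library number as a block and 0 and 3 without both libraries numbered 2. Mafk, the small Maf partner of Nrf2, and Sqstm1, the autophagy receptor p62 that binds Keap1, fell by 0.54 and 0.41 log2 units. Hcar2 did not pass, with 532, 609 and 844 at 4 h and 668, 1523 and 901 at 24 h and a log2 change of 0.58 (SE 0.25, adjusted p = 0.0696). Nfe2l2 and Keap1 themselves were at -0.07 and -0.24 and did not pass.

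Genes of cell division and of ribosome making were lower at 24 h. All 26 ribosome biogenesis genes fell (median -0.63, and all 26 without both libraries numbered 2), against 24.3% of all tested genes. Ncl, nucleolin, went from 41529, 39148 and 41277 at 4 h to 26512, 23572 and 28221 at 24 h, a log2 change of -0.64 (SE 0.09, adjusted p = 2.39e-04). Dkc1, the pseudouridine synthase dyskerin, went from 4303, 4263 and 4096 to 2449, 2064 and 2555, a log2 change of -0.85 (SE 0.09, adjusted p = 4.27e-05). The range over the list was from -0.85 to -0.26 (Npm1, nucleophosmin, which did not pass when any library other than 4 h library 2 was left out), and 24 to 26 of the 26 fell when single libraries were left out. Of 26 DNA replication genes 20 (76.9%) fell, among them the helicase subunit Mcm5 (-0.64), and none rose (median -0.43, and 18 lower without both libraries numbered 2). Of 26 mitosis genes 19 (73.1%) fell and none rose (median -0.46, and 19 lower without both libraries numbered 2). Cdc20, an activator of the anaphase-promoting complex, went from 4190.5, 3473 and 4009.6 to 2432, 1893 and 2409, a log2 change of -0.80 (SE 0.11, adjusted p = 1.73e-04). The proliferation antigen Mki67 changed by -0.46. Library 2 was the lowest or middle of its group, never the highest, for all 26 replication genes at both times, the reverse of its place in the interferon genes.

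Cdk1, the kinase that drives entry into mitosis, had 2652, 2294 and 2916 at 4 h and 1925, 1464 and 2041 at 24 h, a log2 change of -0.54 (SE 0.13, adjusted p = 0.00411). Its window of 300 bases before the start (GRCm39, chr10:69188769-69189068, -) is shown because it holds both elements known from mitotic promoters, the cell cycle gene homology region TTTGAA and the CCAAT box, marked in capitals on either strand.
Cdk1: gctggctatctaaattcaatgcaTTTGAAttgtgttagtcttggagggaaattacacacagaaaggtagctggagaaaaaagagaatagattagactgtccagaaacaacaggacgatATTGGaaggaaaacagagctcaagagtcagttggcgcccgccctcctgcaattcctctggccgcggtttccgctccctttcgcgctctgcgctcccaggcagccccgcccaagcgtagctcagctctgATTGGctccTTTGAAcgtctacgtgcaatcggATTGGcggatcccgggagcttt
Among the 26 mitosis genes 10 (38.5%) held TTTGAA and 16 (61.5%) CCAAT in this window, against 15.6% and 40.1% of all windows. For the E2F letters GGCGGGAA the share was 3 of 26 replication genes (11.5%) against 3.51%. Other letters searched on both strands were near the share of all windows or rested on 1 gene or none: TGACNNNGC (antioxidant response element) in 3 of 22 Nrf2 targets (13.6% against 12.3%), CACGTG (E box) in 2 of 26 ribosome biogenesis genes (7.69% against 8.67%), TCACNCCAC (sterol regulatory element) in 1 of 21 sterol genes (4.76% against 1.19%) and GGGANTTTCC (NF-kB) in 0 of 20 late effectors (against 0.503%).

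Sterol synthesis genes were higher at 24 h, 15 of 21 (71.4%) with 1 (4.76%) lower, against 25.1% and 24.3% of all tested genes. Their median was 0.46, and the counts were 17 and 1 without both libraries numbered 2. Mvd, mevalonate diphosphate decarboxylase, had 1345, 1731 and 1273 at 4 h and 2597, 3197 and 2964 at 24 h, a log2 change of 1.02 (SE 0.12, adjusted p = 7.70e-05). Pmvk, phosphomevalonate kinase, had 413, 574 and 412 at 4 h and 755, 1122 and 917 at 24 h, a log2 change of 1.0 (SE 0.16, adjusted p = 4.15e-04). Both had every 24 h library above every 4 h library. Library 2 was the highest of the 4 h group for 21 of the 21. Of 15 genes of lipid efflux and LXR targets 7 (46.7%) rose and 2 (13.3%) fell (median 0.25). The counts were 4 and 1 without 24 h library 2 and 6 and 1 without both libraries numbered 2. Abca1 and Abcg1 were at 0.33 and 0.26 and did not pass. Of 20 genes of the ATF4 stress response 10 (50%) rose, among them the transcription factor Ddit3 (1.03) and Vegfa (0.77), and 2 (10%) fell. The median was 0.26, with 4 lower with the library number as a block and 8 higher and 3 lower without both libraries numbered 2. Unfolded protein response genes went 6 up and 6 down of 19, 31.6% each against 25.1% and 24.3% of all tested genes (median -0.13). The counts were the same without both libraries numbered 2. Of 22 genes of glycolysis and the hypoxia response 9 (40.9%) rose and 2 (9.09%) fell (median 0.14). None was lower without 24 h library 1 or 3 or 4 h library 1 or 3, and 9 rose and 1 fell without both libraries numbered 2. The rises were led by the oxidase Ero1a, from 7889.8, 12185 and 14524 to 23583, 36263 and 24676, a log2 change of 1.31 (SE 0.21, adjusted p = 3.99e-04). Growth control genes rose in 6 (31.6%) and fell in 3 (15.8%) of 19 (median 0.18), with the same counts without both libraries numbered 2. Cytoskeleton and adhesion genes rose in 5 and fell in 5 of 18, 27.8% each (median -0.02). Of the latter, 3 were lower without any 1 of the 24 h libraries, and 5 rose and 4 fell without both libraries numbered 2.

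**Figure D2:**
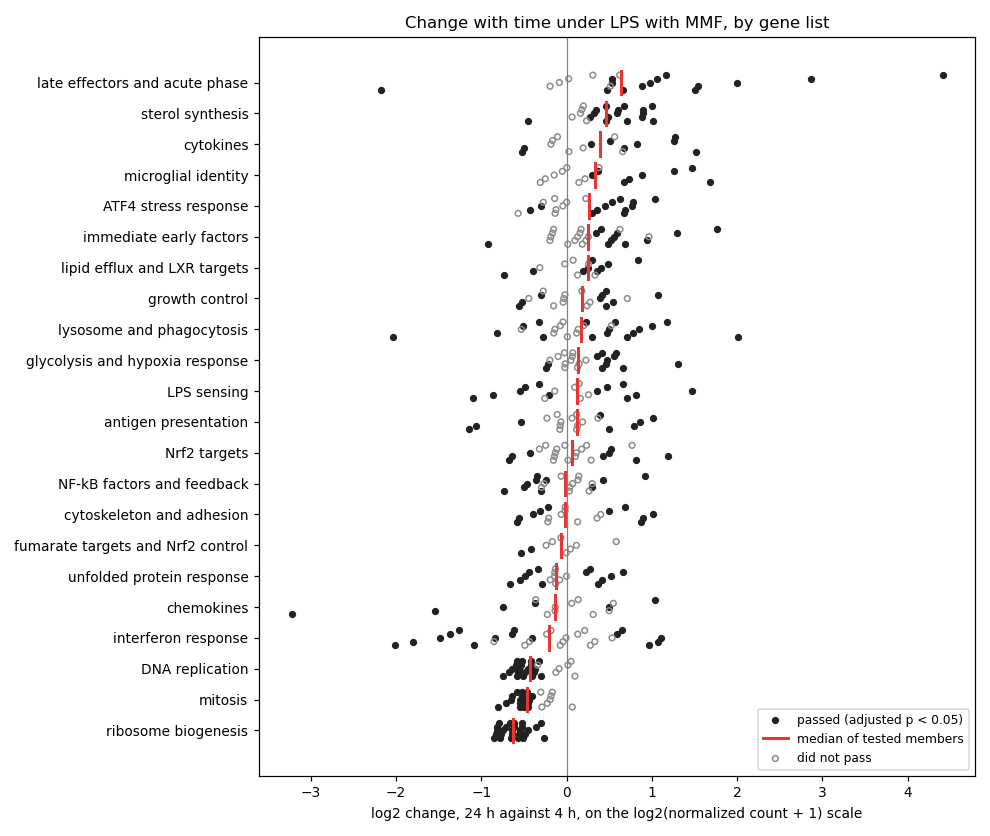
Log2 change, 24 h against 4 h, of each tested member of 22 gene lists under LPS with MMF (points, filled where the adjusted p was below 0.05) with the median of each list (red bar). Ribosome biogenesis, mitosis and DNA replication lie to the left of 0 as groups, with medians of -0.63, -0.46 and -0.43, whereas interferon-response genes spread to both sides.

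The next question was whether MMF altered the course of the LPS response in time. It was addressed by testing the difference between the change under LPS with MMF and the change under LPS alone in 12 libraries scaled together, where each value differs slightly from those above. No gene of 11839 passed with limma (0%), and 0 did with edgeR and with DESeq2. At an unadjusted p of 0.05, 384 of the 11839 genes were past the threshold with limma. That is less than the share of 0.05 that would pass on average if no gene differed. This fit did not use the library number, although same-numbered libraries deviated together in both treatments. Shared deviations left in the error can make p-values too large, so the low count does not show that no gene differed. Their part in the count was not tested. The smallest adjusted p was 1 with limma and 0.1478 with DESeq2. For 9857 genes (83.3%) the 95% interval of the difference lay within ±1 log2 unit, and in the median gene its bounds stood 0.349 from the difference. Taken separately, the 2 changes shared 4626 genes that passed in the same direction (2346 up and 2280 down), which is 81% of those under LPS with MMF and 82.1% of the 5633 under LPS alone, and 0 genes passed in opposite directions. Both changes rest on separate libraries.

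Hmox1 was the 1 gene that passed once the library number within each treatment entered as a block, with a difference of -0.89 (SE 0.10, adjusted p = 0.0123, limma). That block paired 4 h with 24 h inside a treatment and did not match libraries across treatments. Under LPS with MMF, Hmox1 had 8128, 9643 and 7986 at 4 h and 6828, 8219 and 6680.3 at 24 h. Under LPS alone it had 3616, 4785 and 3688 at 4 h and 5125, 7335 and 6451 at 24 h. Among libraries of the same number the MMF library at 4 h was the highest and the LPS library at 4 h the lowest. Without the block the difference was -0.89 (95% interval -1.31 to -0.47) and did not pass. For other members of interest the intervals of the difference were wide. It was 0.33 (95% interval -0.66 to 1.32) for Lcn2, -0.31 (95% interval -1.67 to 1.05) for Nos2, 0.63 (95% interval -0.20 to 1.45) for Ifit1, 0.03 (95% interval -0.94 to 1.0) for Mx1 and 0.04 (95% interval -0.85 to 0.93) for Hcar2. Srxn1 had -0.44 (95% interval -0.73 to -0.14), Txnrd1 -0.23 (95% interval -0.47 to 0.02) and Mmp9 0.70 (95% interval 0.19 to 1.21), none of which passed. The LPS and MMF medians stood close for late effectors (0.63 and 0.64), sterol synthesis (0.44 and 0.46) and ribosome biogenesis (-0.69 and -0.63), and were farther apart for chemokines (-0.55 and -0.13) and LPS sensing (-0.24 and 0.12).

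Cells that received the vehicle without LPS also changed between 4 h and 24 h. The comparison with them sets the course under LPS with MMF beside that of culture with vehicle and no LPS. The same test found 868 of 11857 genes (7.32%) whose change differed between LPS with MMF and the DMSO vehicle, 462 (3.9%) more positive and 406 (3.42%) more negative under LPS with MMF. The split moved with the scaling and the tool, to 557 and 339 with TMM factors and to 407 and 458 with edgeR. LPS and MMF were both absent from the vehicle, so their parts cannot be told apart here. Leaving out 1 library gave 530 to 843 genes, with 530 without vehicle 24 h library 6, 536 without MMF 24 h library 3 and 561 without vehicle 4 h library 6. Taken separately, 3922 genes passed in the same direction in both, 68.7% of those under LPS with MMF and 66.2% of the 5922 in the vehicle, and 89 passed in opposite directions.

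Urah, Lcn2, Wfdc17 and Msr1 had the largest positive differences among genes that reached the mean of 50. Lcn2 had 247, 339 and 234 at 4 h and 4068, 7335 and 6465 at 24 h under LPS with MMF. In the vehicle it had 8.74, 60.4 and 13.7 at 4 h and 26.5, 36.9 and 32.4 at 24 h, and the changes differed by 3.76 (SE 0.66, adjusted p = 0.00409). The vehicle libraries of the 2 times overlapped. Wfdc17, a small secreted protein with a whey acidic protein domain, rose under LPS with MMF from a mean of 46.4 to 274 and stood at 22.4 and 18.7 in the vehicle, a difference of 2.80 (SE 0.26, adjusted p = 5.25e-05). The scavenger receptor Msr1 went from a mean of 982 to 1795 under LPS with MMF and from 668 to 271 in the vehicle, a difference of 2.2 (SE 0.30, adjusted p = 9.01e-04). The difference for Urah was 4.41, with 0 to 1.04 counts in every vehicle library, and did not pass with edgeR or DESeq2. Late effectors as a list had 7 of 20 genes with a more positive and 2 with a more negative change, against 3.9% and 3.42% of all tested genes. The counts were 4 more positive without vehicle 24 h library 6 and 5 more negative without vehicle 4 h library 5. The more positive genes included S100a8 (2.15), Mmp9 (1.62), Hp and Slpi, the last pair not passing without several single libraries. Adgre1, the macrophage antigen F4/80, and the receptor Fcgr1 fell in the vehicle and rose under LPS with MMF, with differences of 1.33 and 1.34.

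Several of the genes with a more negative change under LPS with MMF, among them Sqstm1, Hmox1 and Cxcl2, rose with time in the vehicle. Sqstm1 had 4860.5, 4839 and 5036 at 4 h and 11568, 12634 and 12654 at 24 h in the vehicle. Under LPS with MMF it had 12739, 14267 and 13284 and 10403, 9731 and 10289.7, a difference of -1.73 (SE 0.09, adjusted p = 1.21e-07). At 24 h the MMF libraries were below the vehicle libraries, at 4 h far above them. Hmox1 followed the same course, from a mean of 3422 to 9273 in the vehicle and from 8227 to 6993 under LPS with MMF, a difference of -1.67 (SE 0.14, adjusted p = 1.45e-05). Of the Nrf2 targets 5 of 22 differed to the negative and 2 to the positive, against 3.42% and 3.9% of all tested genes. The negative count was 3 without vehicle 24 h library 6, vehicle 4 h library 5 or 6, MMF 24 h library 1 or 2 or MMF 4 h library 1 or 2. Cxcl2, a neutrophil chemokine, rose in the vehicle from a mean of 167 to 790.1 and stood at 8843 and 8282 under LPS with MMF, a difference of -2.40 (SE 0.33, adjusted p = 9.01e-04). Differences for Ccl3 and Ccl4 were -1.79 and -1.99, and 5 of 15 chemokines in all differed to the negative. The stress factors Atf3 (-1.71) and Ddit3 (-1.23) belonged here too. The most negative differences were in Ldc1 (-5.85), which did not pass with edgeR or DESeq2, Mpp2 (-4.23), a membrane-associated guanylate kinase, and the copper transporter Atp7b (-2.82). The difference for Ccl20 (-2.85), at 0 in 5 of the 6 vehicle libraries, did not pass with edgeR or DESeq2. In the vehicle the list medians were -0.54 for ribosome biogenesis, -0.49 for mitosis and -0.68 for DNA replication, of the same sign as under LPS with MMF. With limma no gene of 26 differed between the treatments in the first 2, and in DNA replication 1 did (0 to 3 without single libraries). Of all tested genes 7.32% differed.

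**Figure D3:**
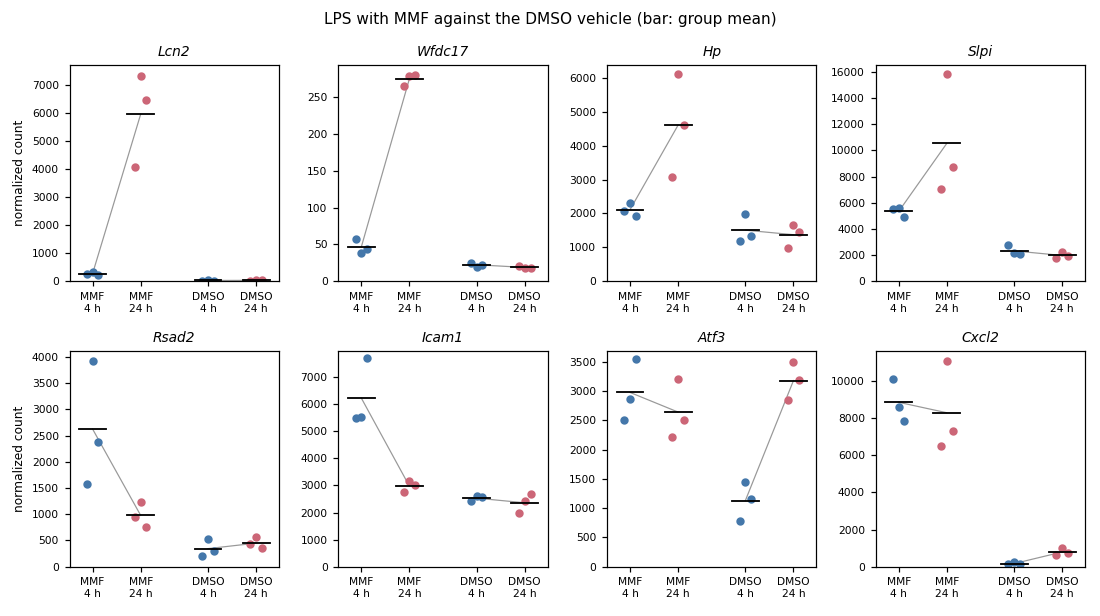
Normalized counts at 4 h (blue) and 24 h (red) in the 3 libraries of each group under LPS with MMF and in the DMSO vehicle, with the group mean as a bar and a line joining the means. Lcn2 and Wfdc17 rise under LPS with MMF and not in the vehicle, whereas Atf3 rises from a mean of 1129.7 to 3178 in the vehicle.

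DMF and MMF were given at the same dose, 30 µM, and harvested at the same times, and differ by 1 methyl ester group. This is the 1 pair of related compounds compared here. The change with time differed between them for 1614 of 11935 genes (13.5%), 825 (6.91%) more positive and 789 (6.61%) more negative with MMF. Beyond 2-fold it was uneven, 112 more positive and 304 more negative. Leaving out 1 library gave 940 to 2003 genes, with 940 and 989 without MMF 24 h library 3 or 1 and 942 and 960 without DMF 24 h library 3 or 2. Of the 1614, 945 had also changed under LPS with MMF itself. Taken separately, 4389 genes passed in the same direction with both compounds, 76.9% of those with MMF and 64.3% of the 6826 with DMF, and 129 passed in opposite directions. For 8727 genes (73.1%) the 95% interval of the difference lay within ±1 log2 unit.

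Nrf2 targets differed between the compounds in 18 of 22 genes, all 18 with a more positive change under MMF, against 6.91% of all tested genes. Hmox1 had 8037, 9526 and 7940.4 at 4 h and 6771, 8214 and 6614 at 24 h with MMF. With DMF it had 36591, 46286 and 49481 at 4 h and 5370.2, 8394 and 7371 at 24 h, and the changes differed by 2.42 (SE 0.21, adjusted p = 2.92e-05). The 24 h libraries of both compounds overlapped, and the 4 h libraries with DMF were all above every other library. Srxn1 had means of 2098 and 1309.5 with MMF and 10645 and 1886 with DMF, a difference of 1.85 (SE 0.19, adjusted p = 5.88e-05). Gclm, the modifier subunit of glutathione synthesis, went from a mean of 7782 to 1781 with DMF and from 1797 to 1663 with MMF, a difference of 2.01 (SE 0.17, adjusted p = 2.92e-05). Vegfd, a growth factor of lymphatic vessels, was also among the 4 most positive differences (2.34).

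Interferon-response genes differed to the negative in 21 of 28, none to the positive, against 6.61% and 6.91% of all tested genes. Ifit1 had 1394, 3373 and 2141 at 4 h and 598, 751 and 537 at 24 h with MMF. It had 439, 683 and 469 at 4 h and 953, 1700.3 and 1285 at 24 h with DMF, so it fell with one compound and rose with the other, a difference of -3.09 (SE 0.38, adjusted p = 2.07e-04). Mx1 (-3.13) and Rsad2 (-2.76) did the same. The list median was -0.21 with MMF and 1.63 with DMF. Inflammatory ligands differed in the same direction, 9 of 16 cytokines and 8 of 16 chemokines, none to the positive. Il1b had means of 1789 and 2782 with MMF and 352 and 5007 with DMF, a difference of -3.80 (SE 0.81, adjusted p = 0.00785). For the monocyte chemokine Ccl7 the means were 297 and 238 with MMF and 82.1 and 872 with DMF, a difference of -3.79 (SE 0.39, adjusted p = 5.88e-05). Gm5431, a predicted gene whose model overlaps another, and the guanylate-binding protein Gbp4 were also among the 4 most negative differences (-4.43 and -3.76). Lcn2 reached a like level at 24 h with both compounds, with means of 6130.1 and 6420.5, from 282 and 60.2 at 4 h, a difference of -2.38 (SE 0.38, adjusted p = 0.00158). Nos2 differed by -3.66 with limma and did not pass with DESeq2.

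Sterol synthesis genes had a median of 0.46 under MMF and of -0.87 under DMF, and 19 of 21 differed to the positive. Of all tested genes 6.91% differed to the positive and 6.61% to the negative. Hsd17b7, an enzyme of the sterol pathway, had 887, 1108 and 805 at 4 h and 939, 1098 and 1086 at 24 h with MMF. With DMF it had 998, 1069.7 and 1019.5 and 291, 256 and 247, a difference of 2.13 (SE 0.16, adjusted p = 8.97e-06). The DMF libraries at 24 h were at most 291, and no other library was below 805. Acat2, an acetyl-CoA acetyltransferase at the start of the pathway, differed by 2.14 and Mvd by 1.65. The median of the mitosis genes was negative with both compounds and lower with DMF (-1.28 against -0.46), and 23 of 26 differed, with Ccnb1, cyclin B1, at means of 2879.7 and 1976 with MMF and 3549 and 1119 with DMF, a difference of 1.14 (SE 0.23, adjusted p = 0.00502). Many of these differences were near the threshold: 13 to 15 of the 26 passed without DMF 24 h library 2 or 3, DMF 4 h library 3 or MMF 24 h library 1 or 3, and those of Cdc20, Cdk1 and Mki67 did not pass when single libraries were left out. For DNA replication 10 of 26 differed. The count fell to between 2 and 4 without DMF 24 h library 2 or 3, DMF 4 h library 3, MMF 24 h library 1 or 3 or MMF 4 h library 2. It was 15 with the library number within each treatment as a block. For ribosome biogenesis, with medians of -0.63 and -0.76, 2 of 26 differed, and 1 to 4 without single libraries. Among the other lists, 5 of 16 microglial identity genes had a more negative change with MMF, against 6.61% of all tested genes (1 without MMF 24 h library 3, 2 without MMF 24 h library 1). Of 10 regulators of Nrf2 or fumarate targets 3 had a more positive change and 1, Hcar2, a more negative one (-1.71), which did not pass without 1 of several libraries.

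**Figure D4:**
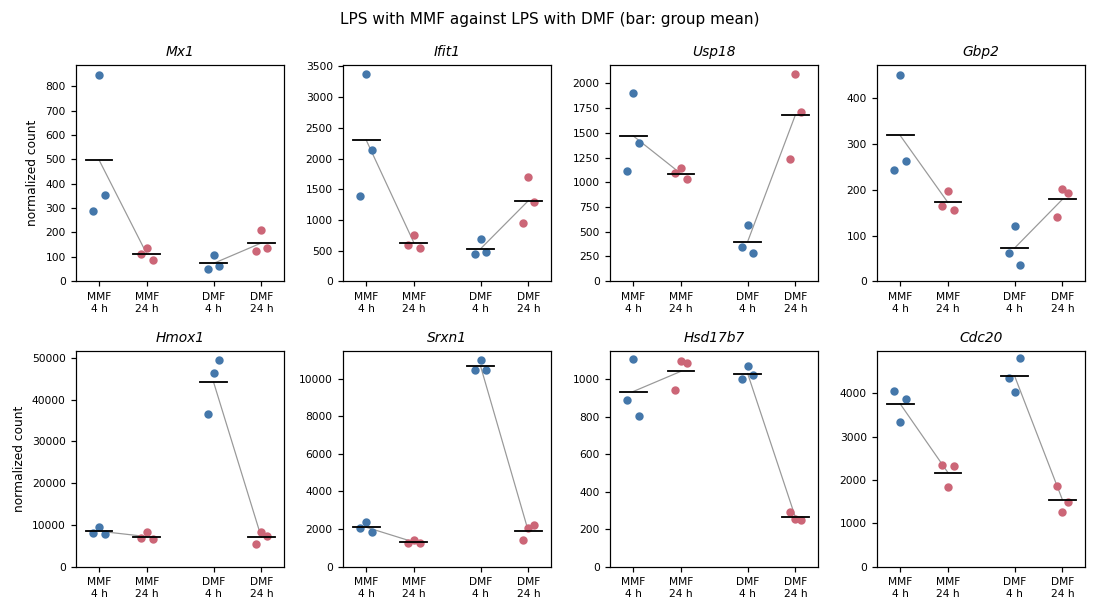
Normalized counts at 4 h (blue) and 24 h (red) in the 3 libraries of each group under LPS with MMF and under LPS with DMF, with the group mean as a bar and a line joining the means. Hmox1 and Srxn1 are highest at 4 h with DMF, at means of 44119 and 10645, and Mx1 and Ifit1 fall with MMF and rise with DMF.

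The list medians of the 4 treatments can be set side by side. These comparisons share the 6 MMF libraries, so they are not independent of each other, and the medians are each treatment's own. Ribosome biogenesis ran from -0.76 to -0.54 over the 4 treatments and late effectors from 0.60 to 0.74, although 9 of 20 late effectors had a change that differed from the vehicle (7.32% of all genes did) and 7 of 20 one that differed from DMF (13.5%). DNA replication and mitosis were negative in all 4. Interferon-response medians were -0.35 under LPS, -0.21 under LPS with MMF, 0.18 in the vehicle and 1.63 under LPS with DMF. The Nrf2 targets were at 0.04, 0.06 and 0.07 under LPS, LPS with MMF and the vehicle and at -0.90 under LPS with DMF.

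**Figure D5:**
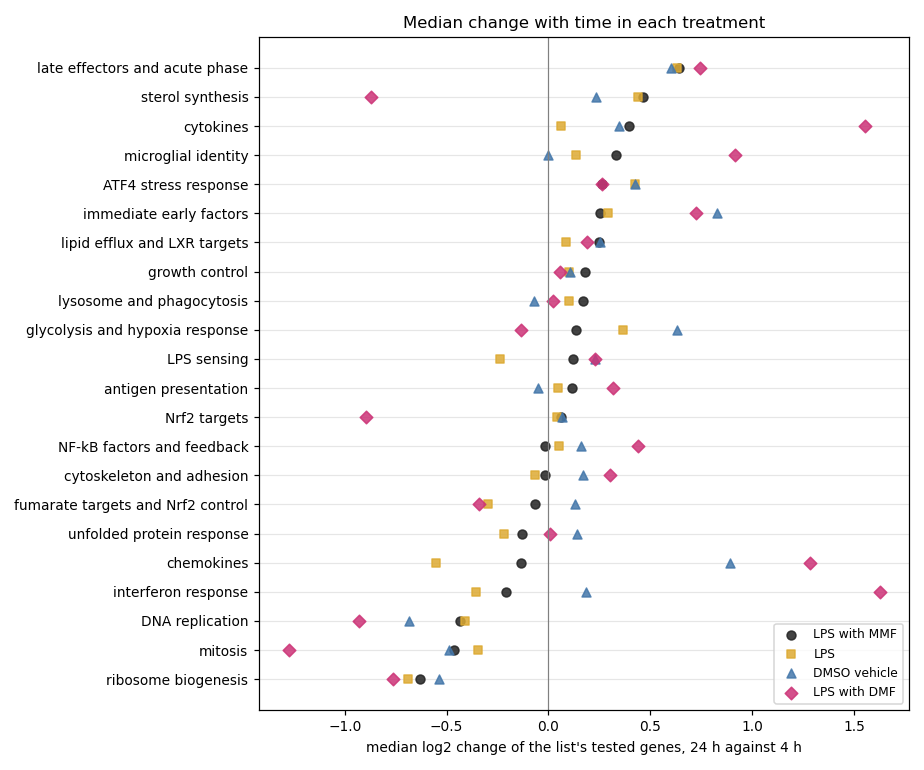
Median log2 change, 24 h against 4 h, over the tested genes of each of 22 lists under LPS with MMF (black circles), LPS (yellow squares), the DMSO vehicle (blue triangles) and LPS with DMF (magenta diamonds). The MMF and LPS medians lie close together for most lists, and the DMF median is farthest from the others for interferon response (1.63), cytokines (1.55), mitosis (-1.28), Nrf2 targets (-0.90) and sterol synthesis (-0.87).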

How the data were processed

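The authors trimmed 150-base read pairs (FastQC 0.12.1, Cutadapt 4.4, Trimmomatic 0.39), aligned them to GRCm39 with HISAT2 2.2.1, counted Ensembl genes with HTSeq 2.0.3 (the strand setting is not given in the sources used here, so antisense and overlapping genes cannot be told apart) and deposited signal values, that is counts divided by DESeq2 1.40.2 size factors. The deposited tables also hold the authors' fold changes, p-values and baseMean, which were not used. Whole reads were recovered from the deposited signal, 100% of 625770 values coming out whole within 0.01, and gave 14110424 to 22774814 reads for the 24 libraries used. Depth limits precision for genes with few reads.

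Genes with at least 10 normalized counts in 3 libraries were tested by limma 3.58.1 (R 4.3.3, empirical Bayes with trend) on log2(value + 1), Benjamini-Hochberg over all of them. Differences between treatments in the change with time were interaction terms over 12 libraries under joint size factors. edgeR 4.0.16 and DESeq2 1.42.0 on the recovered reads, a replicate block, pseudocount 8, other filters, TMM and leaving out libraries were alternatives. Named genes were the 12 largest rises and 12 largest falls, where the higher group averaged 50 or more and the groups did not overlap, 4 genes in each direction per interaction with the same mean in the highest group, and members of 27 lists (512 genes, 454 tested). Gene models without a symbol were skipped. The members and lists were chosen with earlier results of these data known. Replicates of LPS with MMF had more differences than sampling noise (chi-square per degree of freedom 4.86 to 17.8). The range was 5.46 to 31.0 for LPS alone, 6.58 to 29.1 for LPS with DMF and 5.27 to 18.4 for the vehicle. In LPS 24 h library 1 mitochondrial genes took 1.44% of the reads, against 2.32% and 2.04% in libraries 2 and 3. Same-numbered libraries deviated together under LPS with MMF (correlations 0.3215, 0.3854 and 0.141) and LPS (0.157, 0.288 and 0.1507). Under LPS with MMF, 24 h library 3 deviated more with 4 h library 1 (0.2107) than with 4 h library 3. The main fits had no block, so their p-values do not use a pairing by number, and the block was an alternative. In the interaction fits the block was the library number within each treatment, with no matching across treatments. Only the limma fits without a block for LPS with MMF alone and for the comparison with the vehicle were run on simulated counts. Those counts held no effect of library number. Some members of the lists are counted but not reported here by name.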

Additional observations from a re-analysis of the deposited data

Results flagged for a closer look

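The change with time under LPS with MMF differed from that of another treatment, by the interaction test in limma, in 2 of the 3 comparisons: for 868 genes against the DMSO vehicle and for 1614 genes against LPS with DMF. Against the vehicle the differences of the 8 genes named by the rule were 4.41 for Urah, 3.76 for Lcn2, 2.80 for Wfdc17 and 2.2 for Msr1 on the positive side, and -5.85 for Ldc1, -4.23 for Mpp2, -2.85 for Ccl20 and -2.82 for Atp7b on the negative side, in log2 units. Urah, Ldc1 and Ccl20 were at or near 0 in at least 1 group and did not pass with edgeR or DESeq2. Against LPS with DMF they were 2.42 for Hmox1, 2.34 for Vegfd, 2.14 for Acat2 and 2.13 for Hsd17b7, and -4.43 for Gm5431, -3.80 for Il1b, -3.79 for Ccl7 and -3.76 for Gbp4, and these 8 passed under every alternative that was run.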

How the results depend on the processing

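The count of 5710 genes changed between 24 h and 4 h under LPS with MMF stayed between 5439 and 6466 with edgeR, DESeq2, TMM, other filters, pseudocount 8 and the replicate block, and between 4680 and 5524 with single libraries left out. It was 5073 without both libraries numbered 2, an alternative chosen after seeing the data. Requiring more than 2-fold as well left 807, 194 and 416 genes for LPS with MMF alone and for the comparisons with the vehicle and with DMF, where the higher threshold itself lowers the count. With the replicate block the comparison with LPS gave 1 gene (Hmox1) in place of 0 and that with DMSO 1484 in place of 868. That with DMF gave 2317 in place of 1614. The cause was not tested. For the vehicle (same-number correlations 0.3616, 0.376 and 0.0079) and DMF (0.1555, 0.3752 and 0.027) the 4 h and 24 h samples share only a number. The vehicle libraries were numbered 4 to 6 and those of LPS with MMF 1 to 3, so no number links them. For LPS with MMF alone no named gene lost its call under the block. With single libraries left out the comparison with LPS gave 0 genes each time, that with the vehicle 530 to 843 and that with DMF 940 to 2003. Of 285 named genes under LPS with MMF, 60 missed the threshold under at least 1 alternative and 0 reversed. Of those named for the vehicle and DMF comparisons, 27 of 81 and 57 of 178 did, and 0 reversed. For 24 h against 4 h under LPS with MMF, the medians of the chemokine, NF-kB and cytoskeleton lists changed sign under an alternative. Median differences from the vehicle did so for mitosis, growth control, ribosome biogenesis and lipid efflux. Those from DMF did so for lysosomal and ATF4 genes. Those from LPS did so for many lists, among them late effectors, Nrf2 targets, sterol synthesis and ribosome biogenesis. With 3 libraries a group, 384 of 11839, 2571 of 11857 and 3470 of 11935 genes had an unadjusted p below 0.05 against LPS, the vehicle and DMF. The first is less than the share of 0.05 that would pass on average if no gene differed. It comes from a fit without the block, whose p-values can be too large where same-numbered libraries deviate together. Depth limits the values of genes with few reads.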
